A study of Mus musculus with 18 samples.

Results

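The mouse mitochondrial genome carries 13 protein genes, and 10 of them are described here: ND1, ND2, ND4, ND5 and ND6 of respiratory complex I, CYTB of complex III, COX1, COX2 and COX3 of complex IV, and ATP6 of the ATP synthase. They were taken from a table of 26301 genes by their Entrez IDs, and all 10 passed the expression filter. They were selected on the p-values of co-culture against astrocytes alone at day 2, which were smallest in the ND genes. The day 2 difference is therefore described below without a test, apart from a count of p-values that restates this choice. The libraries were made from total RNA of mouse astrocytes, glial cells that supply and regulate neurons, grown from newborn cortex for about 2 weeks. There were 6 groups of 3 libraries: astrocytes with neurons for 2 days and astrocytes alone at day 2, the same with neurons for 4 days and alone at day 4, and with neurons for 7 days and alone at day 7. All plates were moved to N2 medium when confluent, and the co-culture plates then received 1000000 neurons from the newborn hippocampus of mice that express TdTomato, a red fluorescent protein. Sorting on this colour followed, and the cultures without neurons defined which cells count as negative. The labels give a common date to libraries of one replicate number, and libraries of the same day and number are compared as pairs. No label names the animals behind a replicate, so a p-value here reflects variation among these cultures.

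Mitochondrial DNA is a small circle, present in many copies per cell, that is transcribed as long RNAs from both strands. These are cut into messenger, ribosomal and transfer RNAs, so genes of the same strand start from the same precursor, and their levels then depend on how long each RNA lasts. The proteins made from them sit at the core of the respiratory chain beside many subunits that are encoded in the nucleus, and astrocytes, which rely largely on glycolysis, also use this chain. ND6 is the only protein gene of these 10 on the opposite strand.

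Where mitochondrial genes share bases, a read over the shared stretch cannot be given to a single gene by its position alone. For genes on opposite strands it depends on the strand setting of the count, which the sources used here do not give. The ends of ND5 and ND6 are shown because they lie tail to tail on opposite strands, and the capitals mark the 14 bases that each shares with the other as its reverse complement.
ND5: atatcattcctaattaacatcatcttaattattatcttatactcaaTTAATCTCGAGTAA
ND6: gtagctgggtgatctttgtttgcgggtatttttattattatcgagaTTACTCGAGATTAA
The end of ATP8, an ATP synthase gene outside the 10, and the start of ATP6 are shown because they overlap by 43 bases on the same strand, in capitals.
ATP8: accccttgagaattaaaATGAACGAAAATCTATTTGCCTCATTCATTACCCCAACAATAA
ATP6: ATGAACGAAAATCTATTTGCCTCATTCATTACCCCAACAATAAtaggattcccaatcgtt
All are transcript sequences from GENCODE M21 (GRCm38), 60 bases each, written from 5′ to 3′ on the gene's own strand. ND6 is also unlike the other 9 in composition, with 28.1% G and 5.97% C, against 8.00% to 16.1% G and 23.8% to 27.7% C in the others.

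Copies of mitochondrial DNA in the nucleus can also take up reads. A run of 7 neighbouring pseudogenes on chromosome 1 matched mitochondrial genes at 99.7% to 100% identity. It covered COX2 over 681 of 684 bases, ATP6 over 678 of 681, COX3 over 783 of 784, ND4 over 876 of 1378 and COX1 over 483 of 1545. No match this close was found among the GENCODE transcripts for ND1, ND2, ND5, ND6 or CYTB. The best partial matches were 96.7% for ND2 over 510 of 1038 bases, 93.6% for ND6 over its whole length, 95.2% for ND5 over 954 of 1824 and 92.9% for CYTB over 1142 of 1144. Of the 7 pseudogenes, Gm10925, the copy of ATP6, has a row in the count table, with 127238 reads. How reads that match both places were counted is not given in the sources used here.

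Of the 18 libraries, 2 stood apart. Replicate 1 of astrocytes alone at day 2 had 3242459 reads, of which 92.5% fell on a gene for which the tables used here give no symbol, and 8358 reads fell on the 10 genes. In replicate 1 of the day 7 co-culture, with 8966485 reads, 40.5% fell on the mitochondrial ribosomal RNA mt-Rnr2. The other 16 libraries had 13950111 to 32623556 reads, and many results are given with and without the 2 libraries that stood apart. Below, CPM are counts per 1000000 reads scaled by TMM, and a log2 fold change is co-culture over alone with its standard error (SE). On this scale 1 read was worth 6.72 CPM in the smallest library. The TMM factor of that library was 0.0459, against 1.17 to 1.39 in the 16 libraries that did not stand apart. The lowest count of any of the 10 genes in any library was 158 reads. The astrocyte markers Gfap, Aqp4 and Slc1a3 had reads in all 18 libraries.

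The 10 genes together took less than 1% of the reads in most libraries. At day 2 they took 0.459%, 0.298% and 0.695% of the reads in co-culture replicates 1, 2 and 3, and 0.258%, 0.237% and 1.08% in astrocytes alone. At day 4 they took 0.669%, 0.681% and 0.775% in co-culture, and 0.829%, 0.558% and 1.44% in astrocytes alone. At day 7 they took 2.00%, 0.770% and 0.406% in co-culture, and 0.792%, 1.22% and 0.800% in astrocytes alone. The groups overlapped at every day, and the highest share was in the co-culture library rich in mt-Rnr2. The mean log2 ratio of co-culture to alone within pairs was 0.18 ± 0.74 at day 2, −0.30 ± 0.59 at day 4 and −0.10 ± 1.26 at day 7 (SD, n = 3 pairs each). In the 7 pairs without a library that stood apart it was −0.41 ± 0.53 (SD), and the share was lower in co-culture in 5 of the 7. These 7 include replicates 2 and 3 of day 2, the contrast that chose the genes, at 0.33 and −0.63. They are 3 replicate numbers over days 2, 4 and 7, so they are not 7 independent replicates.

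Beside them, mt-Rnr2, the large ribosomal RNA of the mitochondrion, took many times more reads. It held 11.9%, 5.35% and 14.0% of the reads in co-culture replicates 1, 2 and 3 at day 2, and 0.254%, 8.44% and 17.3% in astrocytes alone. At day 4 it held 11.5%, 11.8% and 13.9% in co-culture, and 10.8%, 11.1% and 16.5% in astrocytes alone. At day 7 it held 40.5%, 10.8% and 17.8% in co-culture, and 17.3%, 16.7% and 18.4% in astrocytes alone. Its share spread less than that of the protein genes at day 4, where the log2 ratio within pairs was −0.02 ± 0.19 (SD, n = 3). There were 11.5 to 43.7 mt-Rnr2 reads per read of the 10 genes in 17 libraries, and 0.987 in the smallest library. The RNA was depleted of ribosomal RNA with the RiboGone kit before sequencing, the labels do not say which ribosomal RNAs it removes, and the part of this step in the share of mt-Rnr2 was not tested. In bulk RNA a lower share cannot be told apart between fewer mitochondrial transcripts per cell and fewer cells that are rich in them.

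**Figure D1:**
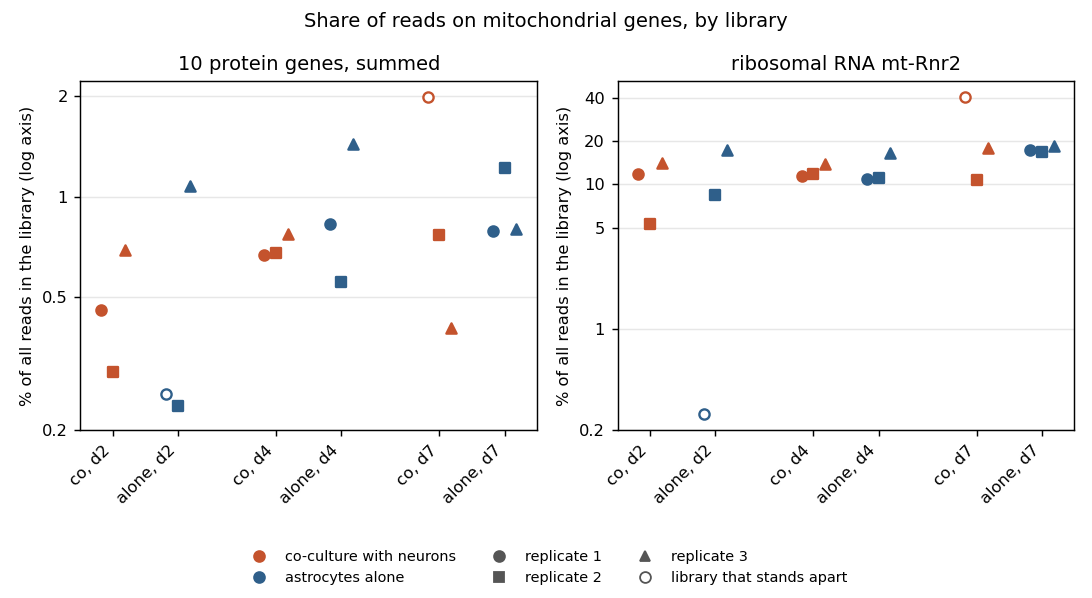
Share of all reads (%, log axes) on the 10 mitochondrial protein genes summed (left) and on mt-Rnr2 (right), a point per library, with co-culture in orange left of astrocytes alone in blue at days 2, 4 and 7. The open points are the 2 libraries that stood apart: astrocytes alone at day 2, with 0.254% on mt-Rnr2, and the day 7 co-culture, with 40.5%.

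Per length, COX1, the catalytic core of complex IV, was the most abundant of the 10. Its median level over the 16 libraries was 2445 RPKM, reads per kb of transcript and 1000000 reads (range 754.6 to 4037), and it stood above the next gene in 16 of 16 libraries. COX3 followed with a median of 537, CYTB with 412, ND5 with 354, ND1 with 301, ND6 with 294, ND2 with 256, COX2 with 249.9, ATP6 with 217 and ND4 with 169.8. Several neighbours in this order changed places between libraries. COX3 was above CYTB in 8 of 16 libraries, ND1 above ND6 in 8, ND6 above ND2 in 9, ND2 above COX2 in 8 and ATP6 above ND4 in 9. The 8 libraries with COX3 above CYTB are those with reads of the nuclear gene Ntrk2, a division described below. ND2 was above COX2 in the 8 without such reads, so the order by medians pools 2 different orders. CYTB was above ND5 in 12 of 16, ND5 above ND1 in 13 and COX2 above ATP6 in 16. The order was another in the smallest library, where ND6 at 862 and ND2 at 604 RPKM were highest and COX1 stood at 122. There complex I genes took 75.4% of the reads of the 10 genes, against 12.9% to 44.1% in the other 17 libraries.

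**Figure D2:**
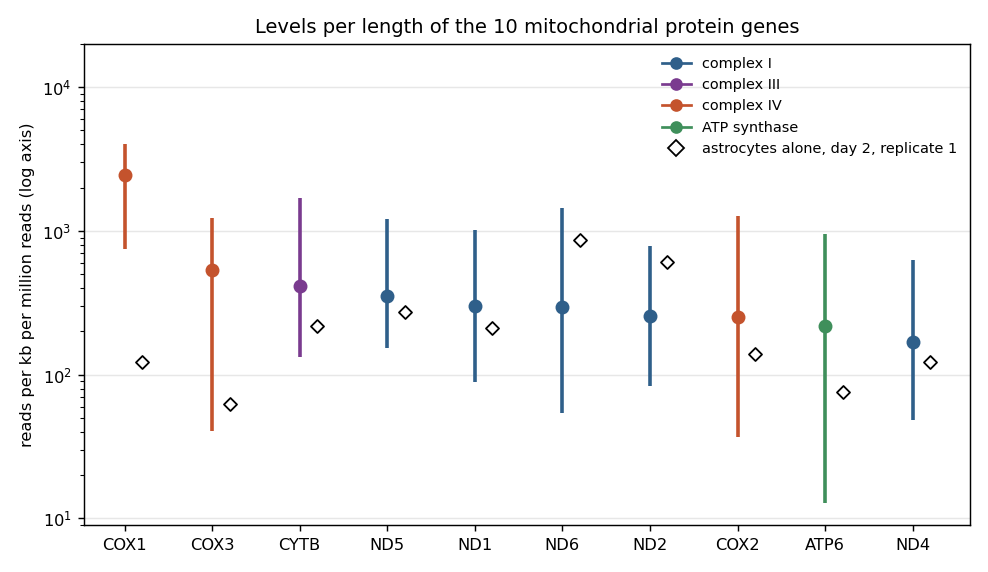
Level per length of each gene in RPKM (log axis), with the median (point) and the range (line) over 16 libraries. Diamonds give the smallest library, replicate 1 of astrocytes alone at day 2. COX1 has the highest median at 2445, and the diamonds of ND6 and ND2 lie above its own.

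The 10 genes fell into different patterns by whether the nucleus holds a near-identical copy, along a division of the libraries that crosses the cultures. In 8 of the 16 libraries the nuclear gene Ntrk2, which encodes the BDNF receptor, had no read, against 11741 to 71965 reads in each of the other 8. In all, 30 genes had no read in the same 8 libraries and reads in each of the other 8. The 8 without Ntrk2 reads are the 6 of replicate 2, replicate 3 of the day 7 co-culture and replicate 3 of astrocytes alone at day 2, so 4 are co-cultures and 4 are astrocytes alone. COX2, the copper subunit that receives electrons from cytochrome c, had 19.0 to 146 CPM (median 64.2) in the 8 libraries without Ntrk2 reads, and 138 to 718 CPM (median 344) in the 8 with them. COX3 had 24.1 to 450.5 CPM (median 168) without Ntrk2 reads and 305 to 797 CPM (median 438) with them. ATP6, the proton channel subunit of the ATP synthase, had 6.54 to 135 CPM (median 58.3) without Ntrk2 reads and 59.9 to 539 CPM (median 163) with them. These 3 genes have a copy over nearly their whole length, and their mean log2 CPM was lower by 1.80 to 2.54 in the libraries without Ntrk2 reads (differences −2.54 for COX2, −1.92 for ATP6 and −1.80 for COX3).

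The 2 genes with a copy over part of their length lay between, at −0.73 for COX1 and −0.18 for ND4. The 5 without a near-identical copy were on the other side, at 0.29 for ND2, 0.42 for ND5, 0.55 for ND1, 0.61 for ND6 and 0.74 for CYTB. Of 9445 genes whose log2 CPM averaged 3 or more, 1.25% were lower by more than 1 in the libraries without Ntrk2 reads, and the median difference was 0.03. Outside the 10 genes, ND3 at −1.74 and ND4L at −1.69 also have a copy over nearly their whole length in the run. ATP8 was at −1.56, with no close copy of its own found among the GENCODE transcripts. Its last 43 bases are also the start of ATP6, which Gm10925 matches over 678 of 681 bases. Sequence outside those transcripts, such as that between the pseudogenes of the run, was not searched. Gm10925 itself was at −0.02. The ratio of CYTB to COX2 reads separated the libraries without overlap, at 5.45 to 16.9 without Ntrk2 reads and 0.616 to 1.48 with them. The libraries and the genes were grouped after their values were seen, so this is a description, and whether the copies have a part in it was not tested.

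**Figure D3:**
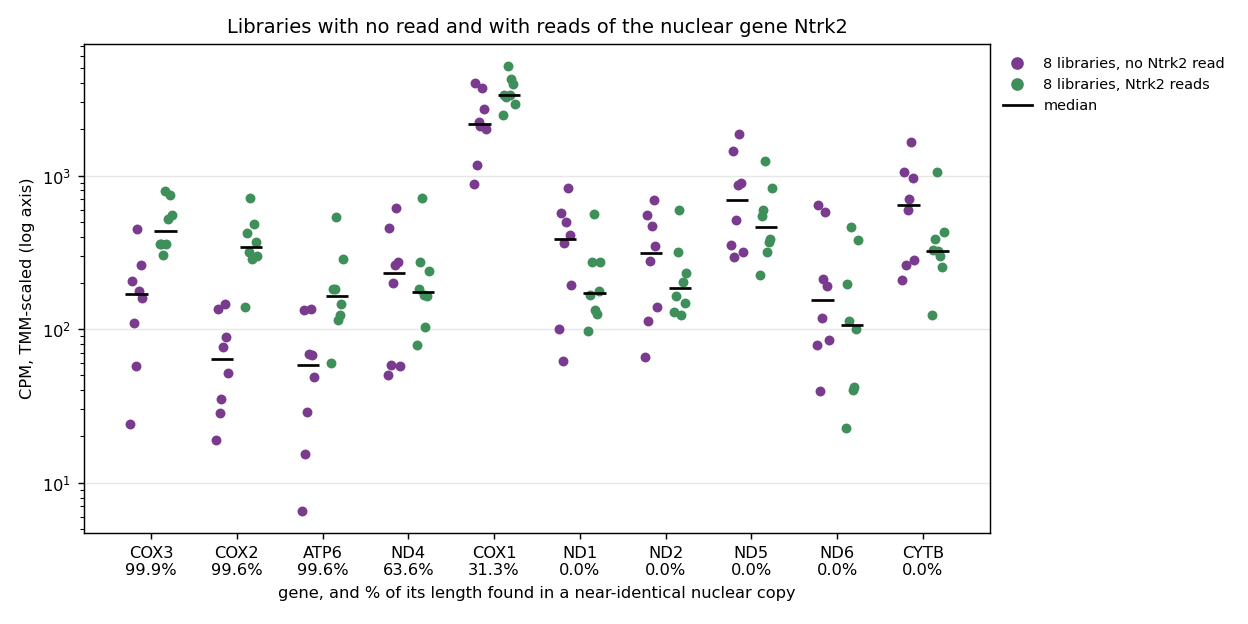
CPM (log axis) of the 10 genes in 8 libraries without Ntrk2 reads (purple, left) and 8 with them (green, right), a point per library with the median as a line. Under each gene stands the share of its length found in a near-identical nuclear copy. COX2 has a median of 64.2 CPM in purple and 344 CPM in green, and CYTB 647 CPM in purple and 323 CPM in green.

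At days 4 and 7, in libraries the choice of genes did not use, no difference of the 10 genes between co-culture and astrocytes alone was larger than the spread between replicates by the test. With edgeR's quasi-likelihood test and Benjamini-Hochberg adjustment, 0 of the 10 and 0 of 16539 genes tested passed at day 4 (0.0%), at day 7 (0.0%) and for their mean (0.0%). In 0 of the 10 were the groups apart without overlap, against 3.92% of all genes lower and 2.05% higher at day 4, and 5.58% lower and 4.29% higher at day 7. The lowest adjusted p among the 10 was 0.999986 at day 4, 0.663 at day 7 and 0.941 for the mean of both days. At an unadjusted p under 0.05, 0 of the 10 passed in each of these, against 0.369% of all genes at day 4, 9.37% at day 7 and 4.82% for the mean. DESeq2 called 0 genes at day 4, 5 at day 7 and 0 for the mean, limma 0 in each, and 0 of the 10 genes were among them. The fitted value was lower in co-culture for 9 of the 10 at day 4, where 51.4% of all genes were lower, with a median log2 of −0.62 against −0.01 over all genes. At day 7 it was lower for 3 of the 10, where 49.8% of all genes were lower, with a median of 0.22 against 0.0041. For the mean of the days it was lower for 6 of the 10, where 48.7% of all genes were lower, with a median of −0.22. Without the 2 libraries that stood apart, the 10 genes had a median of −0.63 at day 4 with 9 lower, −0.94 at day 7 with 10 lower and −0.66 for the mean with 10 lower, and 0 passed. In those 16 libraries with the replicate number as a block, 1 of the 10, ND6 (log2 −1.40, SE 0.57), had an unadjusted p under 0.05 for the mean, as did 519 of 17092 genes, and its adjusted p did not pass. Another fit of the 16 libraries had a term for the presence of Ntrk2 reads and no replicate block. Its median was −0.81 at day 4 with 9 lower, −0.80 at day 7 with 10 lower and −0.82 for the mean with 9 lower. In that fit 0 of the 10 passed.

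ND6, a membrane subunit near the quinone end of the complex, had 40.4, 211 and 42.2 CPM in co-culture replicates 1, 2 and 3 at day 4, and 114, 118 and 459.8 CPM in astrocytes alone. At day 7 it had 266, 189.5 and 85.5 CPM in co-culture, and 100.2, 579.5 and 381 CPM in astrocytes alone. It was lower in co-culture in 2 of 3 pairs at each day, and the groups overlapped. Its log2 fold change was −1.23 (SE 1.16) at day 4 and −0.97 (SE 1.16) at day 7, with an adjusted p of 0.867 at day 7 by edgeR's quasi-likelihood test, and −1.41 (SE 1.10) at day 7 without the 2 libraries that stood apart.

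ND5, one of the proton-pumping membrane subunits, differed in the same direction as ND6 in each of these 6 pairs. It had 318, 863 and 368 CPM in co-culture at day 4, and 598, 516 and 1245 CPM in astrocytes alone. The values at day 7 were 1376, 893 and 319 CPM in co-culture, and 388, 1874 and 833 CPM in astrocytes alone. The high co-culture value at day 7 is that of the library rich in mt-Rnr2, and in the other 2 pairs co-culture was lower. Its log2 fold change was −0.61 (SE 0.86) at day 4 and −0.26 (SE 0.86) at day 7, and −0.81 (SE 0.73) at day 7 without the 2 libraries that stood apart.

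ND1, the subunit beside the quinone site, had 133, 495 and 126 CPM in co-culture at day 4, and 273, 364 and 561 CPM in astrocytes alone. By day 7 ND1 had 1076, 413 and 195 CPM in co-culture, and 177, 834 and 273 CPM in astrocytes alone. The proton-pumping subunit ND2 had 124, 468 and 204 CPM in co-culture at day 4, and 316, 276 and 599.6 CPM in astrocytes alone. Both genes were higher in co-culture in replicate 2 and lower in replicates 1 and 3 at day 4. At day 7 ND2 had 1409, 347 and 139 CPM in co-culture, and 147, 697 and 233 CPM in astrocytes alone. At day 7 both were higher in co-culture in replicate 1 and lower in replicates 2 and 3, so the replicate that went against the others was not the same at the 2 days. The log2 fold change of ND1 was −0.67 (SE 0.93) at day 4 and 0.39 (SE 0.93) at day 7, and that of ND2 was −0.58 (SE 1.13) at day 4 and 0.81 (SE 1.14) at day 7. Without the 2 libraries that stood apart, ND1 was at −0.53 and ND2 at −0.60 at day 7. ND4, a further pumping subunit, had 166, 262 and 104 CPM in co-culture at day 4, and 273, 199.8 and 717 CPM in astrocytes alone. By day 7 ND4 had 428, 275 and 57.3 CPM in co-culture, and 164, 611 and 240.4 CPM in astrocytes alone. ND4 followed the same pairs as ND1 and ND2, with a log2 fold change of −1.16 (SE 0.98) at day 4 and −0.42 (SE 0.97) at day 7, and −1.06 (SE 0.88) at day 7 without the 2 libraries that stood apart.

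**Figure D4:**
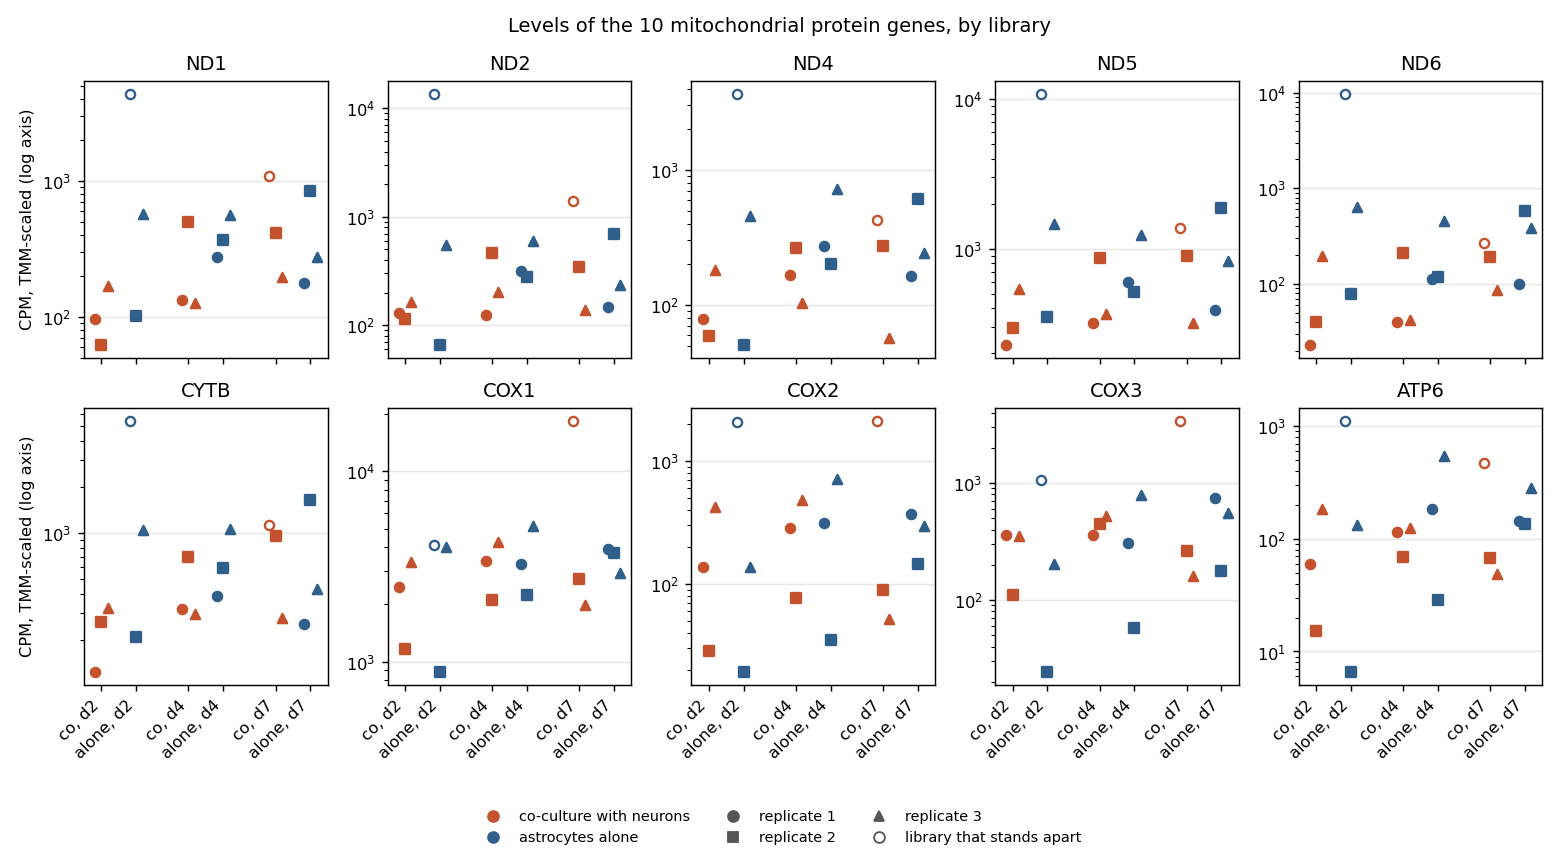
CPM (TMM-scaled, log axes) of each of the 10 genes by library, with co-culture in orange left of astrocytes alone in blue at days 2, 4 and 7, and a marker shape for each replicate number. Open points are the 2 libraries that stood apart, which hold the highest CPM of every gene. ND6 reaches 9748 CPM in the smallest library, against at most 640.3 CPM elsewhere. Per total reads ND6 had 862 RPKM there, and up to 1442 in the 16 other libraries that did not stand apart.

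CYTB, the haem-carrying core of complex III, had 320.5, 702 and 298 CPM in co-culture at day 4, and 386, 593 and 1060 CPM in astrocytes alone. Its day 7 values were 1130, 959 and 280.0 CPM in co-culture, and 254, 1655 and 428 CPM in astrocytes alone. The groups overlapped at both days, with a log2 fold change of −0.63 (SE 0.86) at day 4 and 0.02 (SE 0.85) at day 7, and −0.36 (SE 0.81) at day 7 without the 2 libraries that stood apart.

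COX1 had the narrowest range of the 10 genes over the 16 libraries. It had 3358, 2111 and 4248 CPM in co-culture at day 4, and 3241, 2239 and 5148 CPM in astrocytes alone. No pair at day 4 differed by more than 0.28 on the log2 scale. Its day 7 values were 18395, 2725 and 1996 CPM in co-culture, and 3920, 3708 and 2909 CPM in astrocytes alone. The library rich in mt-Rnr2 was the only day 7 co-culture library above its partner. The log2 fold change at day 7 was 1.13 (SE 0.73) with all libraries, the lowest adjusted p of the 10 at 0.663 by edgeR's test, and −0.61 (SE 0.59) without the 2 that stood apart.

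COX2 had 286, 77.0 and 483 CPM in co-culture at day 4, and 316, 35.0 and 718 CPM in astrocytes alone. The values at day 7 were 2136, 89.3 and 51.4 CPM in co-culture, and 371, 146 and 297 CPM in astrocytes alone. The low values are those of the libraries without Ntrk2 reads, which at day 7 include replicate 3 of the co-culture and not its partner. The day 7 log2 fold change of COX2 was 1.48 (SE 1.41) with all libraries, −1.99 (SE 1.18) without the 2 that stood apart, and −0.32 (SE 0.76) with a term for the presence of Ntrk2 reads. COX3, which stabilises the core of complex IV, had 358, 450.5 and 519 CPM in co-culture at day 4, and 305, 57.5 and 797 CPM in astrocytes alone. Its day 7 values were 3425, 262 and 159 CPM in co-culture, and 749, 177 and 557 CPM in astrocytes alone. COX3 was the only one of the 10 with a fitted value above 0 at day 4, at 0.19 (SE 1.10). At day 7 COX3 was at 1.37 (SE 1.12) with all libraries and −1.28 (SE 0.93) without the 2 that stood apart.

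ATP6 had 115, 69.3 and 124 CPM in co-culture at day 4, and 183, 28.9 and 539 CPM in astrocytes alone. By day 7 ATP6 had 471, 67.6 and 49.1 CPM in co-culture, and 145, 135 and 285 CPM in astrocytes alone. Its log2 fold change was −1.28 (SE 1.21) at day 4 and 0.06 (SE 1.19) at day 7, and −1.75 (SE 1.15) at day 7 without the 2 libraries that stood apart. The nuclear copy Gm10925, identical to ATP6 over 678 of its 681 bases, differed in its ratio to ATP6. Gm10925 had 2.63, 7.96 and 1.82 reads per ATP6 read in co-culture replicates 1, 2 and 3 at day 4, and 0.924, 3.99 and 0.699 in astrocytes alone. At day 7 it had 4.11, 5.64 and 4.86 reads per ATP6 read in co-culture, and 3.21, 2.66 and 0.775 in astrocytes alone. The ratio was higher in co-culture in 6 of 6 pairs at these days, by a mean log2 of 1.33 ± 0.76 (SD over the 6 pairs). These pairs are 3 replicate numbers, each at days 4 and 7, so they are not 6 independent replicates. Replicate 1 at day 7 holds a library that stood apart. The ratio also differed by library, at 2.66 to 15.5 (median 5.25) in the 8 libraries without Ntrk2 reads and 0.699 to 3.21 (median 1.47) in the 8 with them. In replicate 3 at day 7 the co-culture library lacks these reads and its partner has them. At day 2 it was higher in 1 of 3 pairs. The ratio was singled out after its values were seen and was not tested.

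Within pairs, the direction was shared by most of the 10 genes and changed between pairs. At day 4 co-culture was lower for 8 of the 10 in replicate 1 (median log2 −0.69), for 1 in replicate 2 (median 0.75) and for 10 in replicate 3 (median −1.80). Over 9445 genes the share lower in these pairs was 39.6%, 54.3% and 45.5%. At day 7 co-culture was lower for 0 of the 10 in replicate 1 (median 2.17), for 9 in replicate 2 (median −1.0) and for 10 in replicate 3 (median −1.59), with 53.2%, 44.8% and 39.2% of the 9445 genes lower. In no gene of the 10 did all 3 pairs of day 4 or of day 7 go the same way, where at day 4 14.8% of all genes were lower and 10.7% higher in every pair, and at day 7 15.8% lower and 14.0% higher. Of the 4 pairs at days 4 and 7 in which both libraries have, or both lack, Ntrk2 reads and neither stood apart, the 5 genes without a near-identical copy were all lower in co-culture in 3 and all higher in 1, replicate 2 at day 4.

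At day 2, the contrast that chose the genes, the fitted values of all 10 were lower in co-culture, where 46.6% of all genes were, with a median log2 of −3.40. Of the 10, 6 had an unadjusted p under 0.05, where 2.35% of all genes did, a count that restates how they were chosen. In 0 of the 10 were the groups without overlap, where 2.27% of all genes were lower and 3.26% higher. Replicate 1 of astrocytes alone, the smallest library, with a TMM factor of 0.0459, held the highest CPM of each gene described next. ND6 had 22.9, 39.6 and 195 CPM in co-culture replicates 1, 2 and 3, and 9748, 79.2 and 640.3 CPM in astrocytes alone. ND5 had 226, 295 and 542 CPM in co-culture, and 10911, 352 and 1454 CPM in astrocytes alone. ND2, with the largest gap after ND6 in replicate 1, had 129.7, 113 and 165 CPM in co-culture, and 13674, 65.4 and 551 CPM in astrocytes alone. The value of ND2 in replicate 1 of astrocytes alone is above that of COX1, which had 4108 CPM there. Without the 2 libraries that stood apart the median log2 was −1.22, with 7 lower. ND1, ND5 and ND6 were lower in co-culture in 3 of 3 pairs (3 of the 10, against 8.48% of all genes), and 0 of the 10 were higher in all 3, against 15.2%. These counts come from the libraries used to choose the genes, and the pair of replicate 1 holds the smallest library. COX2, COX3 and ATP6 were higher in co-culture in replicates 2 and 3. COX3, for one, had 358, 110.3 and 356 CPM in co-culture, and 1062, 24.1 and 204 CPM in astrocytes alone. In replicate 3 at day 2 the partner grown alone lacks Ntrk2 reads and the co-culture library has them.

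**Figure D5:**
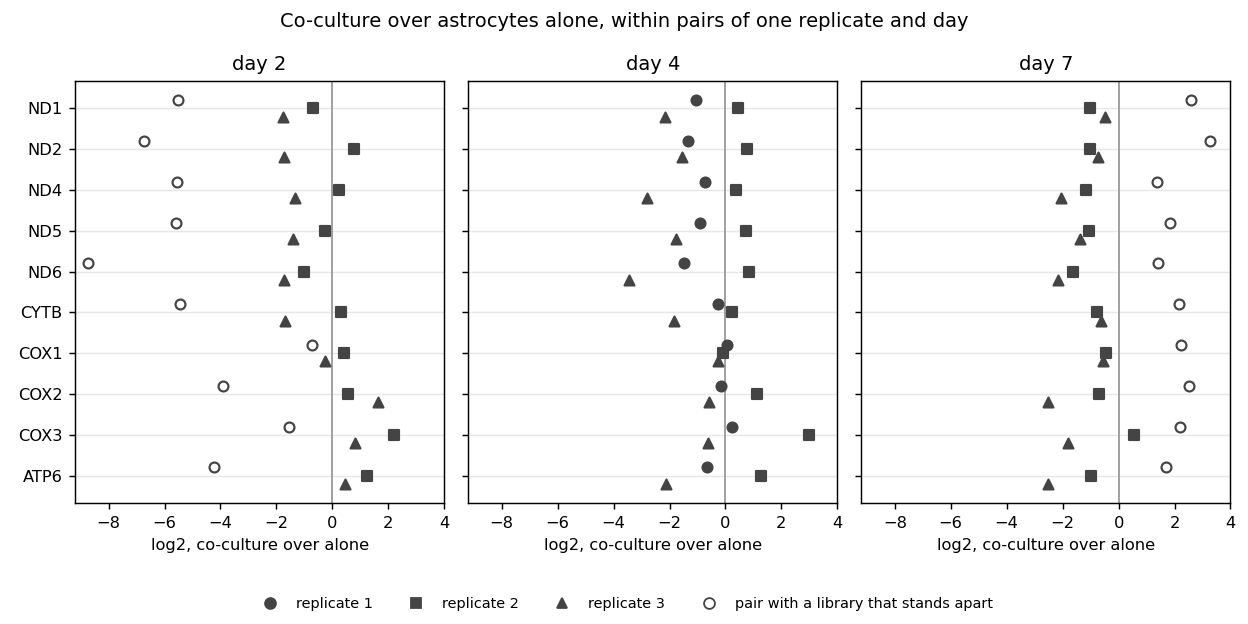
Log2 ratio of co-culture over astrocytes alone for each of the 10 genes within the 3 pairs of each day, a marker shape for each replicate number. Open points are pairs that hold a library that stood apart. Left of 0 is lower in co-culture. At day 4 replicate 3 lies left of 0 for all 10 genes and replicate 2 right of it for 9, and at day 7 replicate 1 lies right of 0 for all 10.

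The make-up of the reads on the 10 genes was also compared within pairs. Complex I genes took 15.0%, 40.3% and 12.9% of the reads of the 10 genes in co-culture replicates 1, 2 and 3 at day 4, and 26.2%, 33.3% and 30.2% in astrocytes alone. At day 7 they took 15.1%, 34.0% and 23.9% in co-culture, and 15.2%, 44.1% and 30.5% in astrocytes alone. The share was lower in co-culture in 5 of 6 pairs at these days, by a mean log2 of −0.42 ± 0.54 (SD), with replicate 2 at day 4 the exception. In replicate 1 at day 7, which holds the library rich in mt-Rnr2, the 2 shares were nearly equal (log2 −0.0089). The 6 pairs are 3 replicate numbers, each at days 4 and 7, so they are not 6 independent replicates. The share also differed by library, at 23.9% to 44.1% without Ntrk2 reads and 12.9% to 30.5% with them.

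ND6 was also lower relative to ND5, its tail-to-tail neighbour on the other strand, whose sequence is shown above. There were 12.7, 24.5 and 11.5 ND6 reads per 100 ND5 reads in co-culture replicates 1, 2 and 3 at day 4, and 19.0, 22.8 and 36.9 in astrocytes alone. At day 7 there were 19.4, 21.2 and 26.8 in co-culture, and 25.8, 30.9 and 45.7 in astrocytes alone. Co-culture was lower in 5 of 6 pairs, again all but replicate 2 at day 4, by a mean log2 of −0.65 ± 0.59 (SD). These are the same 3 replicate numbers at days 4 and 7, and replicate 1 at day 7 holds the library rich in mt-Rnr2. For neither gene was a near-identical nuclear copy found among the GENCODE transcripts. The ratio ran over nearly the same range in libraries without Ntrk2 reads, 13.4 to 44.0, and with them, 10.1 to 45.7. The strand setting of the counts is not given in the sources used here, and its part in this ratio was not tested. At day 2, the contrast of the choice, it was lower in 3 of 3 pairs. These ratios combine genes chosen with results in view, and no test was made of them.

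Between day 4 and day 7 none of the 10 genes passed the test in either kind of culture. In co-culture, day 7 against day 4, 0 of the 10 and 0.0% of all genes passed, and the lowest adjusted p among the 10 was 0.577 (COX1) by edgeR's quasi-likelihood test. All 10 were fitted higher at day 7 and 0 lower, where 50.0% of all genes were lower, with a median log2 of 1.04, and 4 of the 10 were higher without the 2 libraries that stood apart, with a median of −0.09. In astrocytes alone 0 of the 10 and 0.0% of all genes passed, with a median of 0.04, 5 higher and 5 lower, where 55.6% of all genes were lower. No gene of the 10 had days without overlap, against 4.4% of all genes lower and 3.59% higher in co-culture, and 3.62% lower and 2.86% higher in astrocytes alone. Within replicate numbers 0 of the 10 went the same way in all 3, against 13.2% lower and 11.0% higher in co-culture, and 11.8% lower and 10.1% higher in astrocytes alone. For the difference of the co-culture effect between the days, day 7 minus day 4, 0 of the 10 and 0.0% of all genes passed, and the lowest adjusted p was 0.999874. All 10 were fitted higher and 0 lower, where 46.4% of all genes were lower, and 7 were lower without the 2 libraries that stood apart. At an unadjusted p under 0.05 these 3 comparisons had 0 of the 10, against 10.2%, 0.169% and 3.07% of all genes. DESeq2 called 7, 0 and 0 genes in them and limma 0 in each, with 0 of the 10 genes among them.

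The 10 genes varied more between replicates than most genes. The SD of log2 CPM within groups, pooled over the groups, had a median of 1.67 over the 10 in all 18 libraries, against 0.603 over 9445 genes, and of 1.25 against 0.402 in the 16 libraries. Over the 16 libraries the highest CPM was 5.85 times the lowest for COX1, 8.29 times for ND5 and 28.0 times for ND6. It was 33.1 times for COX3, 37.7 times for COX2 and 82.4 times for ATP6. These ranges pool the libraries without and with Ntrk2 reads. Within these sets, in that order, the range was 7.65 and 5.19 times for COX2, and 18.7 and 2.61 times for COX3. For ATP6 it was at most 20.6 times within a set. For ND6 it was 16.2 and 20.1 times. ND4 and ND2 followed the other 9 genes most closely, with an SD of the log2 ratio to their mean of 0.469 and 0.542 over the 16 libraries. COX1 had 0.579, ND5 0.586, ND1 0.685, CYTB 0.749 and ATP6 0.937. ND6 at 1.02, COX3 at 1.14 and COX2 at 1.26 followed least. This measure also pools the libraries without and with Ntrk2 reads. The same measure against the mean of all 10 was 0.697 for mt-Rnr2 and had a median of 1.04 over 9430 nuclear genes. The nuclear genes closest to the 10 were Pcmtd1 (0.549), Eif3j2 (0.564), Cwf19l2 (0.580), 2900092D14Rik (0.580) and Elovl6 (0.581).

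The nuclear partners of these proteins did not pass the test either. Of 75 nuclear subunits of the 5 complexes, 73 were tested and 0 passed in edgeR at day 4 or day 7. At day 7, 63 were fitted higher in co-culture and 10 lower, with a median log2 of 0.45, and without the 2 libraries that stood apart 65 were higher and 8 lower, with a median of 0.35. At day 4, 42 were higher and 31 lower, with a median of 0.05. The complex IV subunit Cox4i1 had 425 ± 445 CPM in co-culture and 92.8 ± 25.3 CPM in astrocytes alone at day 7 (SD, n = 3 each), with a log2 fold change of 2.20 (SE 0.61) and 0.82 (SE 0.47) without those libraries, and an adjusted p of 0.468. Atp5a1, a catalytic subunit of the ATP synthase, had 417 ± 29.4 CPM in co-culture and 297 ± 59.6 CPM in astrocytes alone, with a log2 fold change of 0.49 (SE 0.36) and an adjusted p of 0.722. Ndufs1 of complex I was at 1.58 (SE 0.48), and at 0.24 (SE 0.24) without the 2 libraries that stood apart. Uqcrc2 of complex III was at 0.72 (SE 0.34), and at 0.28 (SE 0.25) without them. Sdha of complex II was at 0.13 (SE 0.36), and at 0.11 (SE 0.31) without them.

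The genes that copy and maintain mitochondrial DNA and RNA gave no call. Of 13 replication and transcription genes 0 passed, with 5 fitted higher and 8 lower in co-culture at day 7 and a median log2 of −0.07. Without the 2 libraries that stood apart 7 were higher and 6 lower, with a median of 0.06. Tfam, which packages mitochondrial DNA, had 22.4 ± 0.762 CPM in co-culture and 21.8 ± 1.57 CPM in astrocytes alone at day 7 (SD, n = 3 each). Polrmt, the mitochondrial RNA polymerase, was at 1.31 (SE 0.50) at day 7 and 0.17 (SE 0.30) without the libraries that stood apart. Of 19 RNA processing and stability genes 0 passed. Lrpprc, which stabilises mitochondrial messenger RNAs, was at −0.30 (SE 0.33), and at −0.06 (SE 0.24) without the libraries that stood apart. Of 75 mitochondrial ribosomal protein genes 0 passed, with 58 higher and 17 lower, a median of 0.64, and 0.26 without those libraries. The regulator Ppargc1a was at 0.54 (SE 0.70) at day 7 and 1.01 (SE 0.47) without them.

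Of the markers of other cell types 0 passed in edgeR, and the ranges of their summed levels overlapped between the groups at day 7. Of 10 microglia and macrophage markers, 10 were fitted higher in co-culture at day 7, with a median log2 of 2.78 and 0 passing, and their summed level was 9.14 to 350.1 CPM in co-culture and 6.10 to 195.5 CPM in astrocytes alone. Without the libraries that stood apart 10 of these were fitted higher, with a median of 2.81. Of 10 neuron markers 7 were tested, and 6 were fitted higher and 1 lower at day 7, with a median log2 of 1.32. Without those libraries 9 neuron markers were tested, 7 higher and 2 lower, with a median of 1.59. Their summed level was 192.0 to 292 CPM in co-culture and 158 to 295 CPM in astrocytes alone. Most reads of this list fell on Stmn2, with 31818 over the co-culture libraries and 28676 over astrocytes alone, and on Map2, with 24859 and 24779. Nefl had 197 reads over the co-culture libraries and 0 over astrocytes alone, Dcx 496 and 6, Snap25 97 and 6, and Syt1 470 and 200. Of the other lists at day 7, 4 of 7 tested oligodendrocyte lineage markers, 4 of 7 endothelial and mural markers and 6 of 6 fibroblast markers were fitted higher. The median log2 of the oligodendrocyte lineage markers was 0.92, and −0.91 without the libraries that stood apart. In that fit 3 of 8, 5 of 7 and 6 of 6 markers of these lists were higher. Their summed levels were 53.4 to 168 CPM in co-culture and 109 to 403 CPM in astrocytes alone for the oligodendrocyte lineage, 19.3 to 69.6 CPM in co-culture and 58.6 to 65.0 CPM in astrocytes alone for endothelial and mural cells, and 27.9 to 95.5 CPM in co-culture and 26.8 to 85.7 CPM in astrocytes alone for fibroblasts. The part of these cells in the levels of the 10 genes was not tested.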

How the data were processed

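RNA was sequenced from 18 libraries in 6 groups. The authors deposited read counts per gene, made with Subread and featureCounts on mm9 per the submitters' processing notes. For the versions, the strand setting and reads with several matches, the sources used here give nothing. Per the labels' protocols, RNA was depleted with RiboGone and prepared with SMARTer low-input kits, 6 libraries per pool. Another 17 columns of correlations were not used.

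RefSeq gave symbols for 24191 of 26301 IDs; GENCODE M21 (GRCm38) gave transcript lengths, overlaps and, by blastn, nuclear copies. Since the counts rest on mm9, no coordinates are printed. In R 4.3.3, edgeR 4.0.16 (quasi-likelihood F test, TMM, filterByExpr, 6 group means, Benjamini-Hochberg over 16539 genes, threshold 0.05) was the test, chosen for whole-number counts. It was tested on simulated counts. Alternatives used DESeq2 1.42.0, limma 3.58.1, other scalings and filters, blocks and fewer libraries. The genes, the lists and the rule for names (all 10 genes, the other mitochondrial genes, 9 fixed nuclear genes and the 5 nuclear genes of closest pattern) were chosen with earlier results of these data known; the division by Ntrk2 reads was added after seeing the data.

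The labels give a replicate number a shared date, so numbers pair the samples; deviations from group means correlated at 0.133 to 0.536 within numbers and at −0.369 to −0.0109 across. No libraries of a group agreed within sampling noise.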

Additional observations from a re-analysis of the deposited data

How the results depend on the processing

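None of the 10 genes passed at days 4 or 7, for their mean, between days or for the difference under any alternative (2040 values, lowest adjusted p 0.258), and 257 of these fitted values changed sign, 69 of them at day 7. Counts over all genes, 0 in the model used, were above 0 under some. At day 7 they were 1 with the replicate block, 5 with DESeq2 and 18 with 16 libraries and the replicate block. For day 7 against day 4 in co-culture they were 1, 7 and 16 under the same settings. The mean of days 4 and 7 had 15, and the difference between days 15, with 16 libraries and the replicate block. The cause was not tested. The paired analysis changed no call of the 10 genes. The mean log2 share ratio at day 2, 0.18, was −1.06 outside the ribosomal RNAs and the gene with 92.5% of 1 library's reads, −1.08 outside the mitochondrial genome and that gene, and −1.43 by TMM-scaled size. At day 7, −0.10, it was 0.03, 0.04 and 0.18 under these settings. Leaving out a replicate moved it between −0.15 and 0.58 at day 2, −0.60 and −0.01 at day 4, and −0.82 and 0.33 at day 7.

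Leaving out libraries moved the median log2 over the 10 genes between −1.49 (without replicate 2) and 0.02 (without replicate 3) at day 4, between −1.09 (without replicate 1) and 1.17 (without replicate 2) at day 7, between −0.82 (without replicate 1) and 0.31 (without replicate 3) for their mean, between −0.27 (without replicate 1) and 1.47 (without co-culture day 7 replicate 3) for day 7 against day 4 in co-culture, between −0.70 (without replicate 2) and 0.71 (without replicate 3) in astrocytes alone, and between −0.48 (without replicate 1) and 2.11 (without replicate 2) for the difference. The lowest count behind any value of the 10 genes was 158 reads, in the smallest library.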

Other observations

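The small ribosomal RNA mt-Rnr1 varied more between libraries than mt-Rnr2. It took 0.931%, 2.28% and 0.407% of the reads in co-culture replicates 1, 2 and 3 at day 4, and 1.05%, 1.53% and 2.09% in astrocytes alone. At day 7 it took 3.67%, 2.09% and 1.39% in co-culture, and 1.05%, 3.90% and 2.10% in astrocytes alone. There were 12.4, 5.19 and 34.2 mt-Rnr2 reads per mt-Rnr1 read in co-culture at day 4, and 10.3, 7.21 and 7.90 in astrocytes alone. In the 7 pairs without a library that stood apart, the share of mt-Rnr1 was lower in co-culture in 6, by a mean log2 of −0.96 ± 1.00 (SD), and that of mt-Rnr2 in 5, by −0.24 ± 0.31 (SD). The 7 pairs are 3 replicate numbers over days 2, 4 and 7, so they are not 7 independent replicates. In replicate 3 at days 2 and 7, 1 library of the pair has Ntrk2 reads and the other lacks them. The part of the depletion of ribosomal RNA in these shares was not tested.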
